A study of Mus musculus with 9 samples.

Results

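The mRNAs of 8 genes whose proteins bind AU-rich elements were followed in 9 mouse lymphomas: the TTP family (Zfp36, Zfp36l1 and Zfp36l2) and Elavl1, Hnrnpd, Khsrp, Tia1 and Tial1. All probe sets that the platform annotation assigns to these genes were taken, 29 of the 45037 on the array, whatever their values. A probe set is a group of short probes that together give 1 value for an mRNA. The tumours came from mice with the Eμ-Myc and the Eµ-TTP-1 transgene together (5 lymphomas, called double-transgenic below) and from mice with Eμ-Myc alone (4 lymphomas). All of the animals carried Eμ-Myc, on a strain background that was 94% C57BL/6, and each lymphoma was 1 biological replicate on 1 Affymetrix array. The labels give neither the age of the mice nor the sequence held by the TTP transgene. The Eμ enhancer, that of the immunoglobulin heavy chain locus, drives a transgene in B-lineage cells.

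AU-rich elements are stretches of adenosine and uridine in the untranslated end of many short-lived mRNAs, among them those of cytokines, immediate-early genes and cell cycle regulators. TTP, encoded by Zfp36, and its relatives bind these elements through a pair of zinc fingers and bring in enzymes that shorten the poly(A) tail, after which the mRNA decays. HuR, encoded by Elavl1, binds similar sequences and stabilises many of its targets, while AUF1 (Hnrnpd) and KSRP (Khsrp) mostly promote decay and TIA-1 (Tia1) and TIAR (Tial1) hold back translation.

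The values were deposited as GCRMA intensities and are given here as log2. Of the 29 probe sets, 24 read over 4 on the log2 scale (an intensity of 16) in at least 4 arrays and were tested among 18464 probe sets. The other 5 lay at or near background: 1439054_at and 1451034_at of Zfp36l2, 1428653_x_at and 1445521_at of Elavl1 and 1453803_at of Tia1, with means of 1.68, 1.42, 3.99, 2.91 and 3.47. Different probe sets have different probes, so levels are compared between lymphomas and not between genes. In tumour RNA, fewer cells of a type and less RNA per cell cannot be told apart. Median intensities were 12.2 to 13.4 per array. All 6 B cell markers named on the array passed the filter, and their mean was 12.34 to 12.70 in double-transgenic and 11.88 to 12.81 in Eμ-Myc arrays. By gene, 5 of the 6 were higher in double-transgenic tumours, beside 58.9% of all genes tested. The log2 differences were 0.80 for Ebf1, 0.73 for Ms4a1, 0.17 for Blnk, 0.12 for Cd79b and 0.11 for Cd79a, and Pax5 had -0.23. Ebf1, a B-lineage transcription factor, did not overlap between the genotypes and was the 1 of 6 with an unadjusted limma p under 0.05 (limma adjusted p = 0.812). Such a p was found for 5.78% of all genes tested, and 1.78% of all probe sets tested did not overlap. The part of the B cell markers in the members' values was not tested. Of 7 T cell markers, 5 were named on the array; 2 of these, Cd3e and Cd3g, did not pass the filter, and the mean of the other 3 was 3.32 to 5.85 in double-transgenic and 4.09 to 5.80 in Eμ-Myc arrays.

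The upstream sequences of 3 members are shown because the first pair ran in much the same order across the lymphomas and the third gene had the one probe set that separated the genotypes. They are the 250 bases before a listed start of each gene, from RefSeq on GRCm38.p6, all on the minus strand. The windows are chr7:28379229-28379478 for Zfp36, chr12:80113014-80113263 for Zfp36l1 and chr8:4325101-4325350 for Elavl1. The Elavl1 gene reaches 4325140, so its window partly lies inside the gene. Capitals mark matches on either strand to 5 motifs: the CArG box, which binds serum response factor; the E-box letters CACGTG; the TATA box in its form TATAAA; the box CCAAT, bound by NF-Y; and the letters GGGCGG, which Sp1 family factors bind.
Zfp36: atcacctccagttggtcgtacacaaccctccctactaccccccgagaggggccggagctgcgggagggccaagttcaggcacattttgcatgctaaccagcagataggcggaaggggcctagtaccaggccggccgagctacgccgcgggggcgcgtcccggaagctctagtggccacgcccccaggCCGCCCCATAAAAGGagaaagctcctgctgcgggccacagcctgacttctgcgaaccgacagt
Zfp36l1: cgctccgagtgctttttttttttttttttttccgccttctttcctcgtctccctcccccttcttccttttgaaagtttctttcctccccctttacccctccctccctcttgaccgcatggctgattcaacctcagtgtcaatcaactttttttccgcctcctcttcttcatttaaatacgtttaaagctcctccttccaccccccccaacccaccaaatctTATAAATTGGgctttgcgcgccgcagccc
Elavl1: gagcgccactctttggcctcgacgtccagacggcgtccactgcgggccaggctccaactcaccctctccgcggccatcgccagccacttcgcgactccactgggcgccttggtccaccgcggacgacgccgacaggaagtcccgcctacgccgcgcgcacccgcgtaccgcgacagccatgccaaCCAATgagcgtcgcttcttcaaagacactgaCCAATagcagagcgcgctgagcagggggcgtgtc
In the Zfp36 window, a CArG box lay 58 to 49 bases before the start and shared a base with a reverse match to GGGCGG. In the Zfp36l1 window, TATAAA lay 29 to 24 bases before the start and shared a base with a reverse match to CCAAT at 24 to 20 bases. Elavl1 had CCAAT at 65 to 61 and at 34 to 30 bases before the listed start, the second of these inside the gene. Of 32851 mouse windows of this length, 1.47% held a CArG box, 6.02% CACGTG, 12.4% TATAAA, 33.8% CCAAT and 32.7% GGGCGG. Windows were available for 7 of the 8 genes, not for Zfp36l2, and that of Tia1 held no match. The matches are descriptions of letters, not of binding.

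No member passed the test between the genotypes across all probe sets. With limma and Benjamini-Hochberg adjustment, 0 of 24 member probe sets had an adjusted p under 0.05, and the background was 0% of the 18464 tested. At an unadjusted p under 0.05 there was 1 of 24, against 6.00% of all probe sets. That probe set, of Elavl1, was higher in double-transgenic lymphomas, and 4.16% of all probe sets had such a p and were higher. Over all probe sets the balance of directions depended on the scaling: 769 of 1107 were higher as deposited and 536 of 1042 after quantile normalisation. Taking double-transgenic minus Eμ-Myc on the log2 scale, the members had a median of 0.08, beside a median of 0.05 over all probe sets tested. In sign, 18 of the 24 lay above 0 and 6 below, where 58.2% of all tested probe sets were higher and 41.8% lower. Several of the 24 read the same gene, so they are not separate counts. By the highest probe set of each of the 8 genes, 5 were higher and 3 lower, where 58.9% of all genes tested were higher. Of the 24, 13 lay above the median difference of all probe sets tested. The adjusted p from limma ran from 0.812 to 0.9996 over the 24. Lymphomas were few, so the 95% intervals given with each gene show the changes that remain compatible with the arrays.

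**Figure D1:**
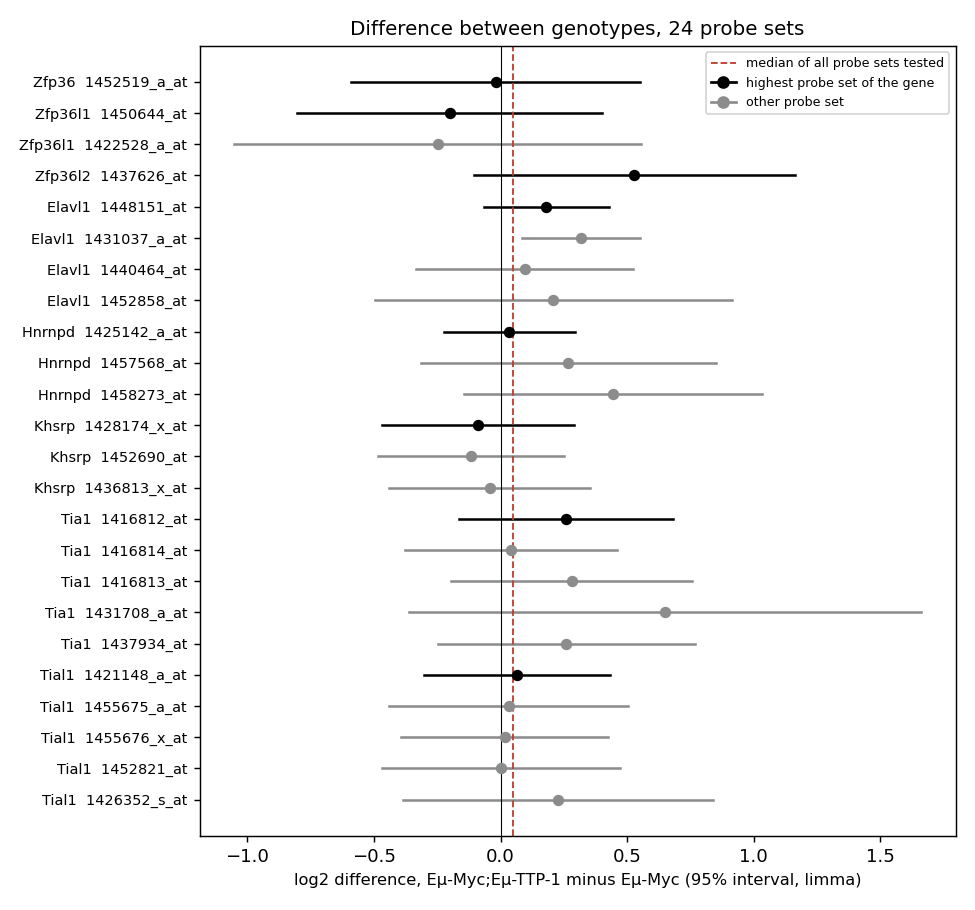
Log2 difference, double-transgenic minus Eμ-Myc, with its 95% interval from limma for the 24 probe sets that passed the filter; black marks the probe set with the highest mean of each gene, and the dashed line marks the median over all probe sets tested, 0.05. Of the 24 intervals, only that of Elavl1 1431037_a_at, from 0.09 to 0.55, does not include 0.

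Zfp36, the gene of TTP itself, is read by a single probe set, 1452519_a_at, and whether that probe set also reads the mRNA of the transgene was not tested. It read 10.85, 9.98, 10.80, 10.34 and 10.79 in double-transgenic replicates 1 to 5, against 10.84, 10.20, 11.01 and 10.24 in Eμ-Myc replicates 1 to 4. In both genotypes the lymphomas fell into a higher and a lower set, with no value between 10.34 and 10.79, and the genotypes overlapped. The log2 difference was -0.02 (95% interval -0.59 to 0.55, limma adjusted p = 0.996), and its sign changed when some single lymphomas were left out. The spread over all 9 lymphomas was 2.04-fold, an SD of 0.37 that was larger than that of 51.8% of the 10172 genes tested.

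Zfp36l1, whose protein acts in the control of quiescence and recombination of precursor B cells, is read by 2 probe sets that passed. The higher, 1450644_at, read 13.04, 12.36, 13.10, 12.41 and 13.09 in double-transgenic lymphomas, against 12.91, 12.70, 13.68 and 12.71 in Eμ-Myc lymphomas. Eμ-Myc replicate 3 stood highest, and the other values of the genotypes overlapped. The log2 difference was -0.20 (95% interval -0.80 to 0.40, limma adjusted p = 0.917), and 0.03 without Eμ-Myc replicate 3. The second probe set, 1422528_a_at, had -0.25 (95% interval -1.05 to 0.55), and the pair had r = 0.97 over the 9 arrays. Zfp36l1 lies on chromosome 12, whose genes had a median deviation of 0.34 in Eμ-Myc replicate 3, and with chromosome medians subtracted the difference was -0.13. The part of the chromosome in that lymphoma's level was not tested further.

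Zfp36l2, another relative that acts in early lymphocyte development, had the largest difference of the 8 genes' highest probe sets. Its probe set 1437626_at read 14.21, 14.57, 13.94, 14.09 and 13.9986 in double-transgenic lymphomas, against 13.12, 14.01, 14.30 and 13.11 in Eμ-Myc lymphomas. All 5 double-transgenic tumours were near 14, whereas the Eμ-Myc tumours were split, with replicates 1 and 4 lower and replicates 2 and 3 within the double-transgenic range. The log2 difference was 0.53 with an SE of 0.28 (95% interval -0.10 to 1.16, a change of 0.930-fold to 2.24-fold). It did not pass (limma adjusted p = 0.831, exact permutation p = 0.159, two-sided). When lymphomas were left out in turn it ran from 0.35 to 0.75. The SDs were 0.25 in double-transgenic (n = 5) and 0.61 in Eμ-Myc lymphomas (n = 4).

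**Figure D2:**
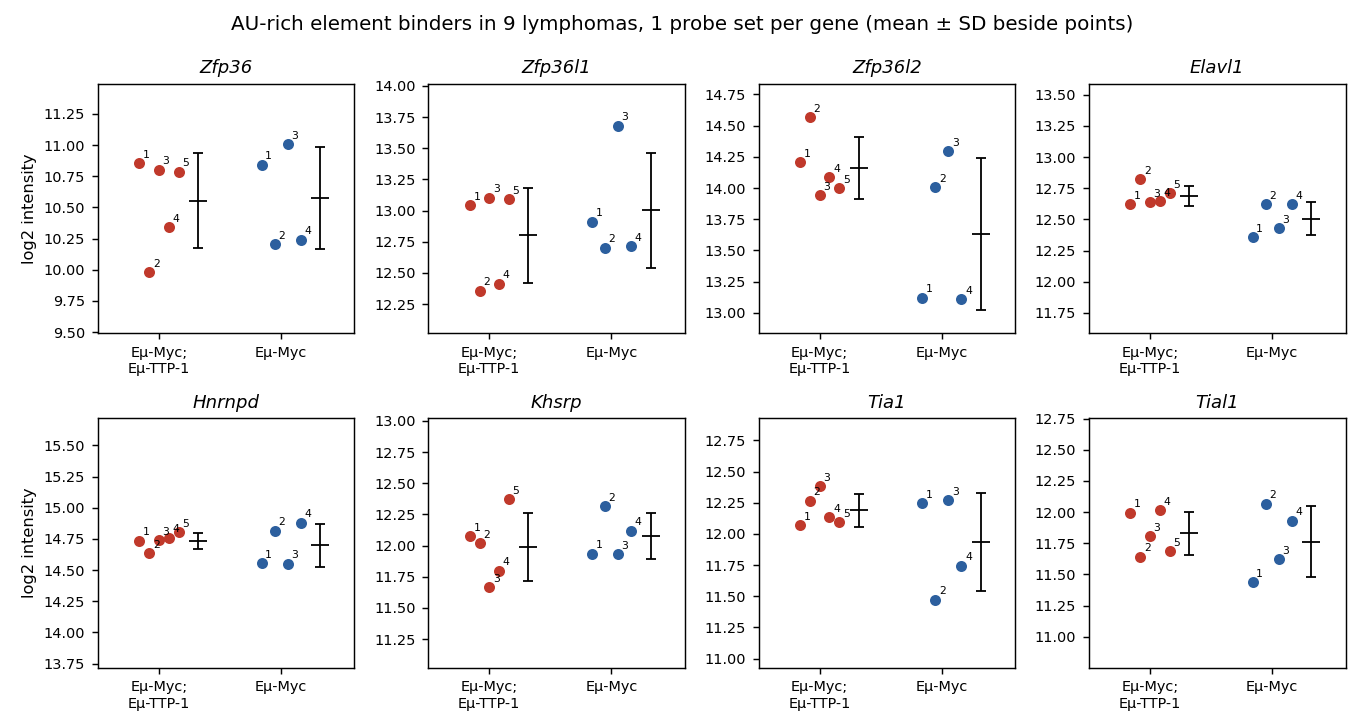
Log2 intensity of the highest probe set of each gene in 5 double-transgenic (left) and 4 Eμ-Myc (right) lymphomas, numbered by replicate, with mean ± SD beside the points; every panel spans 2 log2 units. Zfp36, Zfp36l1 and Zfp36l2 spread over more than 1 log2 unit, while Hnrnpd and Elavl1 stay within 0.5.

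Within the TTP family, Zfp36 and Zfp36l1 had the same lymphomas at the top and at the bottom. Double-transgenic replicates 1, 3 and 5 and Eμ-Myc replicates 1 and 3 were the 5 highest in both genes, and double-transgenic replicates 2 and 4 with Eμ-Myc replicates 2 and 4 the 4 lowest. Over the 9 lymphomas r was 0.87 and rho 0.82, and r was 0.83 without the 2 lymphomas farthest from the median of Zfp36, double-transgenic replicate 2 and Eμ-Myc replicate 2. Leaving out each lymphoma gave 0.82 to 0.90, subtracting each genotype's mean 0.89, and subtracting chromosome medians 0.92. The exact permutation p was 0.00152 for r and 0.0108 for rho. Adjusted by Benjamini-Hochberg over the 28 pairs of members, r passed (exact permutation, adjusted p = 0.0426) and rho did not (0.241). Correlations between members were not among the planned comparisons. Zfp36 lay in 2 separate sets of fewer than 6 lymphomas, so the pooled values with Zfp36l1 and with the list means below do not show a relation within either set. In rank, Zfp36l1 was number 57 of 10171 other genes by r with Zfp36. Zfp36l2 did not share the order, with r = -0.09 with Zfp36 and 0.03 with Zfp36l1, and was highest in double-transgenic replicate 2, where both relatives were lowest.

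**Figure D3:**
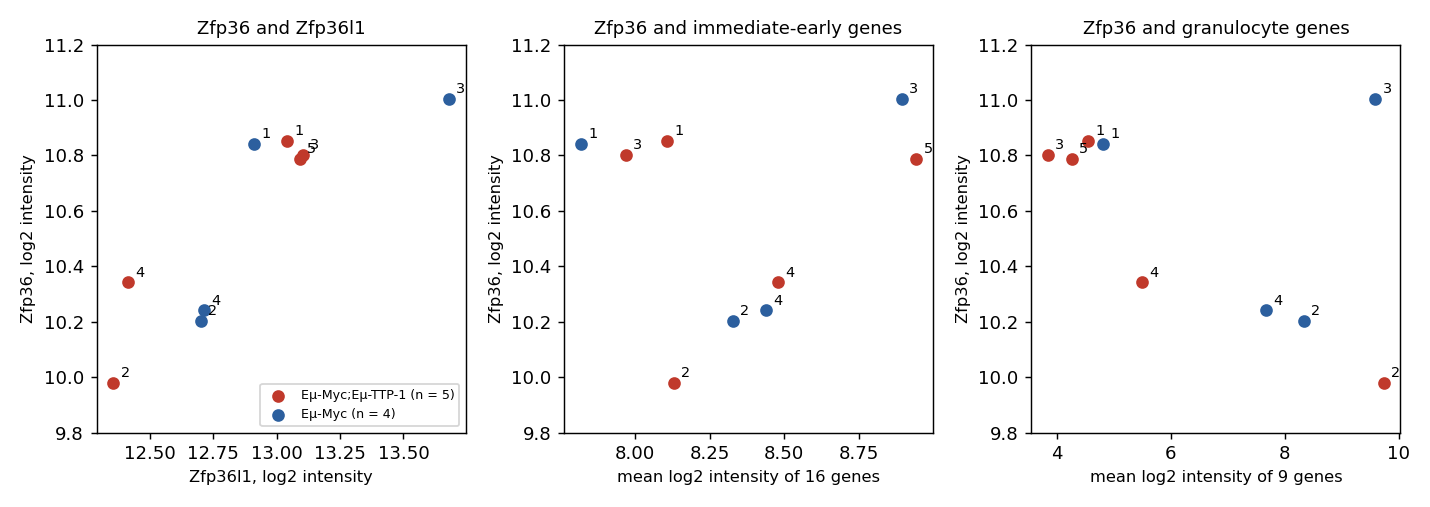
Zfp36 log2 intensity of 9 lymphomas, numbered by replicate, against Zfp36l1 (left), the mean of 16 immediate-early genes (middle) and the mean of 9 granulocyte genes (right), all on the log2 scale. Zfp36 and Zfp36l1 run together from double-transgenic replicate 2, at 9.98 and 12.36, to Eμ-Myc replicate 3, at 11.01 and 13.68.

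Zfp36 is itself an immediate-early gene and is abundant in myeloid cells, so its family was set against list means. The mean of 16 immediate-early genes ran from 7.97 to 8.94 in double-transgenic and from 7.82 to 8.89 in Eμ-Myc lymphomas, and its r with Zfp36 was 0.12 and its rho -0.08 (exact permutation p = 0.741 and 0.843). Without the 2 lymphomas farthest from the list's median, double-transgenic replicate 5 and Eμ-Myc replicate 3, r was -0.65. Among single genes of the list, r with Zfp36 ran from -0.75 for Ier3 to 0.67 for Egr1. The macrophage mean, over 10 of 13 listed genes (Cd14 and Vsig4 did not pass), ran from 8.59 to 10.14 in double-transgenic and from 9.45 to 10.57 in Eμ-Myc lymphomas, with r = -0.30 and rho = -0.05 (exact permutation p = 0.430 and 0.912).

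Granulocyte genes were present at very different levels between tumours, with Elane of the list not passing the filter. All 9 genes tested were lower on average in double-transgenic lymphomas, with a median log2 difference of -1.97, where 58.9% of all genes were higher. At an unadjusted limma p under 0.05 there were 0 of the 9, against 5.78% of all genes. The mean of 9 of the 10 listed genes was 4.55, 9.74, 3.85, 5.50 and 4.26 in double-transgenic replicates 1 to 5, against 4.81, 8.34, 9.59 and 7.67 in Eμ-Myc replicates 1 to 4. Its r with Zfp36 was -0.51 and its rho -0.40 (exact permutation p = 0.157 and 0.291), and r was -0.90 without double-transgenic replicate 2 and Eμ-Myc replicate 3. The part of myeloid cells in the Zfp36 values was not tested. Over the 9 relations of Zfp36, Zfp36l1 and Zfp36l2 with the 3 lists, every Benjamini-Hochberg adjusted exact permutation p was 0.871 for r, and they were 0.871 to 0.912 for rho. For Zfp36l1 and Zfp36l2, r over all 9 lymphomas was at most 0.37 in size. Their largest rho in size was with granulocyte genes, -0.48 for Zfp36l1 and 0.52 for Zfp36l2 (exact permutation p = 0.194 and 0.162, unadjusted). Some values of r depended on the handling. With genotype means subtracted, Zfp36l2 had r = 0.75 with the granulocyte mean (exact permutation p = 0.0174, unadjusted), and it had -0.27 without double-transgenic replicate 2 and Eμ-Myc replicate 3. Zfp36l1 had r = -0.89 with the macrophage mean without Eμ-Myc replicates 3 and 4, against -0.07 over all 9.

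Elavl1, the gene of HuR, had the only probe set among the members whose genotypes did not overlap. Probe set 1431037_a_at read 12.53, 12.59, 12.55, 12.47 and 12.38 in double-transgenic lymphomas, against 12.10, 12.15, 12.16 and 12.34 in Eμ-Myc lymphomas. Its log2 difference was 0.32 with an SE of 0.10, a 1.25-fold level (95% interval 1.06-fold to 1.47-fold). The unadjusted limma p was 0.0131 and the adjusted p 0.812, and the exact permutation p of 0.00794 is the smallest that 5 lymphomas against 4 can give. Of all tested probe sets 1.78% did not overlap, and 1.27% did so with higher double-transgenic values, so 1 of 24 is near the background; after quantile normalisation 158 of 353 such probe sets were higher, and 235 of 329 as deposited. When lymphomas were left out in turn, the difference stayed between 0.29 and 0.37.

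The probe set of Elavl1 with the highest mean, 1448151_at, read 12.62, 12.82, 12.64, 12.65 and 12.71 in double-transgenic lymphomas, against 12.36, 12.62, 12.43 and 12.62 in Eμ-Myc lymphomas. The genotypes met at 12.62, shared by double-transgenic replicate 1 and Eμ-Myc replicates 2 and 4. The log2 difference was 0.18 (95% interval -0.07 to 0.43, limma adjusted p = 0.831, exact permutation p = 0.0238, two-sided). Over the 9 lymphomas this probe set and 1431037_a_at had r = 0.77. The 2 weaker Elavl1 probe sets, 1440464_at and 1452858_at, had differences of 0.10 and 0.21, both overlapped widely, and their r with 1448151_at was -0.16 and -0.26. Both changed sign without Eμ-Myc replicate 2, to -0.04 and -0.06.

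Hnrnpd, the gene of the decay factor AUF1, was among the steadiest mRNAs by its strongest probe set, 1425142_a_at. It read 14.74, 14.63, 14.74, 14.76 and 14.80 in double-transgenic lymphomas, against 14.55, 14.81, 14.55 and 14.88 in Eμ-Myc lymphomas. Its SD over 9 lymphomas, 0.12, was larger than that of 3.91% of genes tested, and the log2 difference was 0.03 (95% interval -0.22 to 0.29). The weaker probe sets 1457568_at and 1458273_at had 0.27 (95% interval -0.32 to 0.85) and 0.44 (-0.15 to 1.03). Both read lowest in Eμ-Myc replicate 1, at 7.58 and 4.62, and had r = 0.74 with each other but 0.34 and 0.37 with 1425142_a_at. Which isoform or part of the mRNA each reads was not examined.

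Khsrp, the gene of the decay factor KSRP, was lower on average in double-transgenic lymphomas on all 3 probe sets, by less than the spread between tumours. Probe set 1428174_x_at read 12.07, 12.02, 11.67, 11.80 and 12.37 in double-transgenic lymphomas, against 11.94, 12.32, 11.93 and 12.12 in Eμ-Myc lymphomas. Double-transgenic lymphomas held both the lowest value, in replicate 3, and the highest, in replicate 5. The log2 difference was -0.09 (95% interval -0.47 to 0.29), and 1452690_at and 1436813_x_at had -0.12 and -0.04. The 3 probe sets had r from 0.82 to 0.98 with each other. Khsrp lies on chromosome 17, whose genes had a median deviation of 0.33 in double-transgenic replicate 5, and with chromosome medians subtracted its difference was -0.19. Zfp36l2, on the same chromosome, then had 0.43.

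Tia1 and Tial1 encode the related proteins TIA-1 and TIAR, which collect untranslated mRNA in stress granules. Tia1 probe set 1416812_at read 12.07, 12.27, 12.38, 12.13 and 12.10 in double-transgenic lymphomas, against 12.25, 11.47, 12.27 and 11.75 in Eμ-Myc lymphomas. The double-transgenic values stayed close together, while Eμ-Myc replicates 2 and 4 lay below all of them. The log2 difference was 0.26 (95% interval -0.17 to 0.68, limma adjusted p = 0.849). The 4 other Tia1 probe sets had 0.04, 0.28, 0.65 and 0.26. Of these, 1431708_a_at, with 0.65 (95% interval -0.36 to 1.66), varied most, with 9.64 to 11.37 in double-transgenic and 9.03 to 11.05 in Eμ-Myc lymphomas.

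Tial1 probe set 1421148_a_at read 12.00, 11.64, 11.81, 12.01 and 11.69 in double-transgenic lymphomas, against 11.44, 12.07, 11.62 and 11.93 in Eμ-Myc lymphomas. The genotypes overlapped throughout, with a log2 difference of 0.06 (95% interval -0.30 to 0.43). Its 4 other probe sets had 0.03, 0.02, 1.08e-03 and 0.23, and fell into sets that did not run together. The trio of 1421148_a_at, 1455675_a_at and 1455676_x_at had r of 0.86 to 0.99, and 1452821_at had 0.82 with 1426352_s_at but -0.30 with 1421148_a_at. In Eμ-Myc replicates 2 and 4, where Tia1 was lowest, Tial1 was among the 4 highest of the 9 lymphomas. Their r was -0.64 and rho -0.65 (exact permutation p = 0.0619 and 0.0666), which did not pass over the 28 pairs of members (Benjamini-Hochberg adjusted p = 0.347 and 0.373). Without Eμ-Myc replicates 2 and 4, the 2 farthest from the Tia1 median, r was -0.44. Opposite order was not particular to this pair. Tia1 had r = -0.68 with Khsrp and -0.66 with Hnrnpd, and Tial1 had r = 0.76 with Hnrnpd. By r, these did not pass either (exact permutation, Benjamini-Hochberg adjusted p = 0.347, 0.347 and 0.287).

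**Figure D4:**
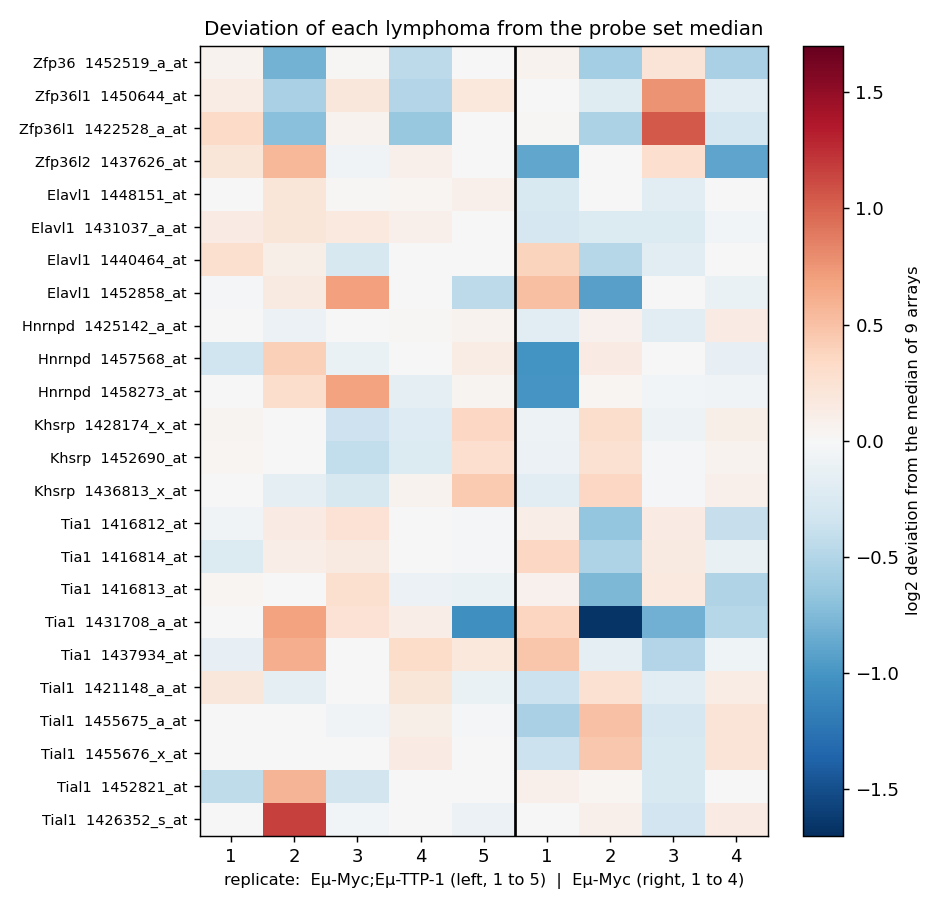
Deviation of each lymphoma from the probe set's median over 9 arrays, on the log2 scale, for the 24 probe sets that passed; the black line separates 5 double-transgenic (left) from 4 Eμ-Myc (right) lymphomas. Zfp36 and both Zfp36l1 rows are blue in double-transgenic replicates 2 and 4 and in Eμ-Myc replicates 2 and 4, and the extreme value of -1.66 is Tia1 1431708_a_at in Eμ-Myc replicate 2.

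Genes with the most similar profile were named as the 3 with the highest Pearson r over the 9 lymphomas. For Zfp36 they were Ttn (0.95), Sike1 (0.95) and Btg1 (0.95), the last an antiproliferative gene. For Zfp36l1 they were Irf2 (0.96), an interferon regulatory factor, Cp (0.95) and Dnase2a (0.94). Zfp36l2 was followed by Mipol1 (0.99), Atp10a (0.96) and Ogfrl1 (0.95). Those nearest to Elavl1 were the DNA helicase gene Ddx11 (0.96), Mcm8 (0.96), of the MCM helicase family, and the kinetochore gene Spc25 (0.96). Hnrnpd had Isca1 (0.96), U2surp (0.96) and Pelp1 (0.92), Khsrp had Krtcap2 (0.93), Cwf19l1 (0.92) and Zdhhc16 (0.91), Tia1 had Zfyve1 (0.97), Ano8 (0.97) and the insulin receptor gene Insr (0.96), and Tial1 had Faap24 (0.97), Rcc1 (0.95) and Ubac1 (0.95). With 9 points and 10171 genes to choose from, r values of this size are the top of a long list and carry no test.

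Other proteins that bind AU-rich or U-rich elements showed no call between the genotypes either. Of 28 listed genes 22 were tested, of which 12 were above and 10 below the Eμ-Myc mean in double-transgenic tumours (58.9% of all genes were above), with a median log2 difference of 0.01. At an unadjusted p under 0.05 there were 0 of 22, against 5.78% of all genes tested, and limma called 0 after adjustment. The ends of the list were Igf2bp3 (0.47, SE 0.69), which binds and stabilises mRNAs, and Celf2 (0.17, SE 0.15), and on the other side the RNase-like gene Zc3h12d (-0.55, SE 0.48) and Fubp3 (-0.26, SE 0.26). Elavl2, Elavl3, Elavl4, the neuronal relatives of HuR, and Igf2bp1 did not pass the filter.

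TTP is held inactive by phosphorylation through p38 kinases and their downstream kinase Mapkapk2, after which adaptor proteins of the Ywha family bind it. Of 18 genes listed for the kinases, the phosphatase PP2A and these adaptors, 17 were tested, 13 lay above and 4 below the Eμ-Myc mean in double-transgenic tumours (58.9% of all genes were above), and the median log2 difference was 0.08. After adjustment limma called 0 of them. Map2k6, a kinase that activates p38, had 0.84 (SE 0.31), with 7.41 ± 0.48 in double-transgenic (SD, n = 5) and 6.57 ± 0.52 in Eμ-Myc lymphomas (SD, n = 4), and was the 1 of 17 with an unadjusted limma p under 0.05 (0.0253, adjusted 0.812), where 5.78% of all genes had one. Map2k3, of the same kinase family, had 0.11 (SE 0.23). Mapk14, the main p38 gene, had 0.26 (SE 0.20), while the p38 relatives Mapk12 (-0.87, SE 1.555) and Mapk11 (-0.58, SE 1.12) were uncertain.

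Immediate-early genes, many of whose mRNAs carry AU-rich elements, had differences of both signs. Of 17 listed, 16 were tested, 8 lay above and 8 below the Eμ-Myc mean in double-transgenic tumours (58.9% of all genes were above), and the median log2 difference was -0.08. Egr1 (1.10, SE 1.05) and Fos (0.79, SE 0.83) stood at one end, and Klf4 (-1.06, SE 0.31) and Atf3 (-0.82, SE 0.46) at the other. Klf4, Junb (-0.36, SE 0.13) and Dusp1 (0.76, SE 0.27) were the 3 of 16 with an unadjusted limma p under 0.05, against 5.78% of all genes. Junb and Dusp1 are named for that reason, after the values were seen. Each had an adjusted limma p of 0.812.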

How the data were processed

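RNA of 9 lymphomas was hybridised to 1 array each, per the labels' protocols. The authors deposited intensity values; the submitters' processing notes name GCRMA (version not given in the sources used here), a method that corrects background, normalises quantiles and summarises probe sets. The scale, linear, was read from the values, and log2 was taken without a pseudocount (one of 16 as an alternative). The platform annotation gave a single gene for 34945 of 45037 probe sets, and symbols were updated through RefSeq's GRCm38.p6 table. All 18464 such probe sets over log2 4 in at least 4 arrays entered 1 fit on genotype alone (limma 3.58.1, R 4.3.3, moderated by eBayes), with p-values adjusted over all of them by Benjamini-Hochberg and a threshold of 0.05. The fit and the permutation test were also run on simulated data. Where a gene had several probe sets, the one of highest mean stood for it. Exact permutation tests were two-sided, over all splits of the lymphomas or, for correlations, all pairings. The members and lists were chosen with earlier results of these data known. Named were all member probe sets, the 3 genes most like each member, and the 2 highest and 2 lowest differences of each list outside the cell type markers. Weak GCRMA values sit near a floor, which makes their folds poorly determined. Scan dates were not used here. The replicate numbers were not used to pair the samples in the main fit.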

Additional observations from a re-analysis of the deposited data

Results flagged for a closer look

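In 3 of the 48 groups of member values, 1 lymphoma lay apart from the others, measured as its gap over the group's range. For independent, normally distributed values about 1 in 20 would, or 2.4. Several groups here read the same gene and some values are tied, so 2.4 is only a rough guide. For Tial1 1455676_x_at it was double-transgenic replicate 4 with 10.85, the remaining double-transgenic values all being 10.71. Tial1 1426352_s_at was high in double-transgenic replicate 2 at 6.58, where its group otherwise spanned 5.32 to 5.42. Hnrnpd 1458273_at was low in Eμ-Myc replicate 1 at 4.62, while the rest of that genotype spanned 5.56 to 5.66.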

How the results depend on the processing

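The number of lymphomas and, for weak probe sets, the signal over background limit every value. The count of probe sets with an adjusted p under 0.05 was 0 in every alternative except without Eμ-Myc replicate 3, where it was 4, so it ran from 0 to 4 when lymphomas were left out; no member was among them, Elavl1 1431037_a_at having 0.601 there. With 1 probe set per gene, where fewer are tested, 577 had an unadjusted p under 0.05 (1107 over all probe sets) and 167 did not overlap (329). Leaving out a lymphoma gave 854 to 1452 and 467 to 969, since smaller groups overlap less often. Quantile normalisation gave 1042 and 353.

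Of the 24 member differences, 11 kept their sign under all alternatives run, those of Zfp36l2, Elavl1 1448151_at and 1431037_a_at among them, and no alternative brought one past the threshold. Tial1 1455676_x_at changed to -0.0096 by quantile normalisation and to -0.0075 with chromosome medians subtracted. Tial1 1452821_at, at 1.08e-03, changed to -0.0041 by median centring, -0.029 by quantile normalisation and -0.022 with chromosome medians subtracted. It changed to -0.0062 with the replicate numbers as a block, the same value as without double-transgenic replicate 5.

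When lymphomas were left out in turn, differences that changed sign ran from -0.14 to 0.12 for Zfp36, -0.30 to 0.025 and -0.45 to 0.080 for Zfp36l1 (1450644_at and 1422528_a_at), -0.039 to 0.25 and -0.055 to 0.42 for Elavl1 (1440464_at and 1452858_at) and -0.015 to 0.094 for Hnrnpd 1425142_a_at. They ran from -0.15 to 0.055 for Khsrp 1436813_x_at, -0.12 to 0.17 for Tia1 1416814_at, and for Tial1 from -0.045 to 0.17 (1421148_a_at), -0.14 to 0.21 (1455675_a_at), -0.11 to 0.16 (1455676_x_at), -0.15 to 0.10 (1452821_at) and -0.012 to 0.30 (1426352_s_at). The cause was not tested.

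The correlations with list means varied in size with the handling, and most changed sign in some alternative. Those of Zfp36 with the macrophage and granulocyte means kept their negative sign in every alternative. When lymphomas were left out in turn, these ran from -0.69 to -0.17 and from -0.94 to -0.29. Neither passed over all 9 lymphomas. The others changed sign as follows. Without the 2 lymphomas farthest from the list's median, r changed sign to -0.65 (Zfp36) and -0.59 (Zfp36l1) for immediate-early genes, 0.21 for Zfp36l2 with macrophage and -0.27 for Zfp36l2 with granulocyte genes. It was 0.27 for Zfp36l2 with macrophage genes after genotype means were subtracted, and 0.035 for Zfp36l1 with macrophage genes without the filter. Left out in turn, lymphomas gave -0.15 to 0.33 (Zfp36), -0.033 to 0.48 (Zfp36l1) and -0.069 to 0.42 (Zfp36l2) for immediate-early, -0.75 to 0.070 (Zfp36l1) and -0.26 to 0.32 (Zfp36l2) for macrophage and -0.77 to 0.22 (Zfp36l1) for granulocyte genes.

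The replicate numbers were shared between genotypes, and same-numbered lymphomas had deviations with r of -0.06, 0.10, 0.00 and 0.21. Lymphomas of different numbers were not compared in this way, so these values cannot decide whether the numbers pair the samples. The labels call them only biological replicates. With the replicate block, 1124 probe sets had an unadjusted limma p under 0.05 and 0 an adjusted p under 0.05. The Zfp36 difference was then -0.08. Number 5 was held by a double-transgenic lymphoma alone, so the block took that lymphoma out of each difference. Without that lymphoma and with no block, the Zfp36 difference was also -0.08. The differences under the block are therefore not a separate view of the pairing.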
